A study of Mus musculus with 9 samples.

Results

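Solute carriers are the largest class of membrane transport proteins, and 183 genes of this class were measured in AML12 cells. They were selected on 3 properties: a protein-coding biotype in GENCODE M1, a symbol that begins with Slc and a digit or with Slco, and a mean normalised count of at least 10 in each of the 2 deposited tables. These 183 genes are 49.5% of the 370 annotated genes with such a symbol, while 11099 of all 22380 annotated protein-coding genes, or 49.6%, reached the same minimum. Of the other genes with such a symbol, 28 were listed in both tables but lay under the minimum in 1 or both, 8 were listed in 1 table alone, and 151 have no value here. AML12 is an immortalised hepatocyte line from the liver of a mouse transgenic for the growth factor TGF-alpha, grown here with 10% serum, insulin-transferrin-selenium supplement and 0.1 µM dexamethasone. The labels describe 3 groups of 3 libraries each: cells with a control shRNA, and cells infected for 5 days with lentivirus carrying Srrm2 shRNA 1 or Srrm2 shRNA 2. *Srrm2* encodes a large serine- and arginine-rich protein that scaffolds nuclear speckles, the nuclear bodies in which splicing factors collect. All libraries come from this 1 cell line, and nothing in the labels says whether replicates were separate cultures.

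Each value below is a pooled mean, the authors' mean of normalised counts over the libraries of 1 hairpin and of the control. By the titles these are 3 and 3 libraries, but which control libraries entered each mean could not be checked. In what follows, with shRNA 1 or with shRNA 2 stands for the pooled mean of that hairpin, control libraries included. A pooled mean does not separate control from knockdown libraries, so no change against the control and no spread between replicates can be given from it, and no test was made. *Srrm2* itself, on chromosome 17 from 23940154 to 23961706 on the + strand of mm9, had pooled means of 3428 with shRNA 1 and 3759 with shRNA 2, which cannot show its knockdown and do not check the labels. The pooled means sum to 6144608 over 13424 genes in the table of shRNA 1 and to 6393456 over 13478 genes in that of shRNA 2. Both tables were normalised separately. Of 13 hepatocyte markers, 11 reached the minimum in both tables, among them *Alb* (2151 and 1814), *Ttr* (2497 and 2640) and *Hnf4a* (1498 and 1624). The 11 ranged widely, from *Cps1* (26.2 and 20.0), *Apoa1* (39.4 and 38.9) and *Fgb* (122 and 84.3) up to *Apob* (20192 and 22608). They include the keratins *Krt8* and *Krt18*. The amino acid-degrading enzyme *Tat* had 4.37 and 2.94, and the asialoglycoprotein receptor *Asgr1* has no value here. Of 4 bile duct markers, 3 reached the minimum, *Krt19* at 2851 and 2753, *Krt7* at 1351 and 1617 and *Sox9* at 670 and 750, and *Epcam* has no value here. None of 3 endothelial markers has a value here. Of 3 leukocyte markers only *Cd68* reached the minimum (25.1 and 29.8), and of 4 stellate cell or fibroblast markers none did. In bulk RNA, fewer cells of a type and less RNA per cell cannot be told apart.

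Solute carriers move amino acids, sugars, nucleotides, metals, organic ions and vitamins across membranes, by facilitated diffusion, by exchange or by coupling to an ion gradient. The families are numbered by sequence relation, and many hold proteins of similar substrates, though single members of a family can carry others. Hepatocytes are known for uptake carriers of bile acids and organic anions on the blood side, for the low-affinity glucose carrier *Slc2a2*, and for a full set of mitochondrial carriers that link the urea cycle, fatty acid oxidation and ATP export. The symbols also take in 4 genes that by their names are not carriers. *Slc3a2*, a heavy chain of amino acid exchangers, was not set apart in this way. The 4 are *Slc9a3r1* and *Slc9a3r2*, scaffold proteins that bind carriers and other membrane proteins, *Slc4a1ap*, an adaptor protein, and *Slc7a6os*, named for its place opposite *Slc7a6*.

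Sequence from mm9 is shown for 4 members, to give the region around the start of transcription of genes described below. Which promoters to print, and which motifs to mark in them, was settled after the matches had been seen: of 6 promoters first chosen 4 were kept, and the 2 left out were those of *Slc3a2*, with 0 TGATGNAA and 0 CCAAT, and *Slc30a1*, with 1 TGCNCNC. Nothing is drawn from the matches for that reason. Each stretch runs 5′ to 3′ from 250 bases before to 50 bases after the start of the transcript with the longest coding sequence. The first 2 are *Slc6a6*, the member with the highest level per kilobase of annotated exon (chr6:91633811-91634110, + strand), and *Slc2a2*, the member with the largest ratio towards shRNA 2 among those with a mean of at least 100 (chr3:28596575-28596874, + strand). Capitals mark GGGCGG and CCAAT on either strand, the letters of the GC box and the CCAAT box.
Slc6a6: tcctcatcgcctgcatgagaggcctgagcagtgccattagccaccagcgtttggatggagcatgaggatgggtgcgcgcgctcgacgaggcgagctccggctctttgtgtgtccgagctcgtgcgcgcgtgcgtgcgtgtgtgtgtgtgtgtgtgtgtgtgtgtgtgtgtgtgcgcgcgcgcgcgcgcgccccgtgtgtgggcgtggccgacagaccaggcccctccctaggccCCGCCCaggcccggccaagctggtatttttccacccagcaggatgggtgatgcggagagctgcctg
Slc2a2: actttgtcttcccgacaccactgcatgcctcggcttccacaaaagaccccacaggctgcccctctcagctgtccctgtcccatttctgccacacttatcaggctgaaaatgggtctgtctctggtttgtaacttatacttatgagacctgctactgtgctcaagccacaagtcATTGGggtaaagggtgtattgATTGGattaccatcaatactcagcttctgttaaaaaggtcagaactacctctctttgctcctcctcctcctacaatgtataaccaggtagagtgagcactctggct
The window of *Slc6a6* holds 1 GGGCGG and 0 CCAAT, and its GC content was 66.7%. That of *Slc2a2* holds 0 GGGCGG and 2 CCAAT, its GC content was 48.0%, and its ratio of observed to expected CpG was 0.121 against a median of 0.771 over all genes at the minimum.

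The other 2 are the zinc carriers *Slc39a10* (chr1:46910842-46911141, - strand) and *Slc30a4* (chr2:122528326-122528625, - strand), which had the lowest ratios among members with a mean of at least 100. Capitals mark TGCNCNC on either strand, the core letters of the metal response element.
Slc39a10: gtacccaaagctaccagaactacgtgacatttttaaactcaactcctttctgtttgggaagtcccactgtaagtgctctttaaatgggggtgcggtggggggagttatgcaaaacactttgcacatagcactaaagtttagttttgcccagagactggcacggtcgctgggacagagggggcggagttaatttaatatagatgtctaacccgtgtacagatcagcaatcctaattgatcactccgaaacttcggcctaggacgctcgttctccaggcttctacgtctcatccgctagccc
Slc30a4: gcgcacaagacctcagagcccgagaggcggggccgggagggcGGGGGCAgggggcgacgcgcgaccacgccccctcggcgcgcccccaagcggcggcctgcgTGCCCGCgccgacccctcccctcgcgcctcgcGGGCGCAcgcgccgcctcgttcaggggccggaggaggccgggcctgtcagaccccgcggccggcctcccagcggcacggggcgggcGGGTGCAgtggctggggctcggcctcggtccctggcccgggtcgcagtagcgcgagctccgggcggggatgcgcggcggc
*Slc30a4* has 4 matches in this window and *Slc39a10* has 0. The same letters occur in 55.2% of the members' windows and in 59.0% of those of all 11099 genes, so a match is frequent anywhere and is a description of letters, not a binding site.

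Levels were compared between genes after division by the kilobases of annotated exon, since a longer transcript yields more counts. On this scale the members spanned 2.31 to 1325 in the table of shRNA 1, with a median of 46.9 and quartiles of 20.4 and 107. In the table of shRNA 2 they spanned 2.80 to 1430, with a median of 50.2. The medians over all 11099 genes were 58.5 and 61.7. Of the members, 77 lay above the middle of all genes in the mean of both tables (42.1%), 53 below their lower quartile (29.0%) and 15 above the 90th percentile (8.20%). Together the members held 1.21% of the summed counts in the table of shRNA 1 and 1.21% in that of shRNA 2. The minimum of 10 was part of the rule, and the member nearest to it, *Slc6a20a*, had 10.7 and 21.4. Next came *Slco4a1* (11.1 and 15.1) and the shorter of 2 gene entries named *Slc38a9* (11.5 and 13.8), while *Slc6a19* (9.86 and 15.1), *Slc37a1* (9.29 and 14.1) and *Slc22a14* (14.4 and 8.76) lay just outside.

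**Figure D1:**
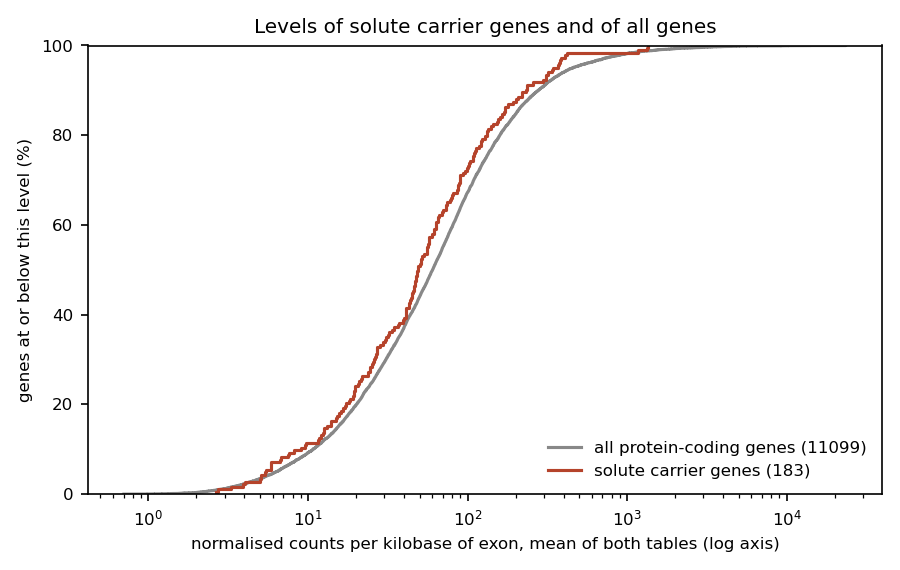
Cumulative share of genes (y axis, percent) at or below a level in normalised counts per kilobase of exon, mean of both tables (x axis, log scale), for the 183 solute carrier genes and all 11099 protein-coding genes at the minimum. The curve of the members lies slightly to the left over most of the range, with 42.1% of members above the middle of all genes.

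By the union of annotated exons, 3 members stood far above the rest and held 20.7% of the summed level per kilobase of all members in each table. *Slc6a6*, the taurine carrier, had 1282 and 1430 normalised counts per kilobase in the tables of shRNA 1 and shRNA 2. *Slc25a5*, the adenine nucleotide translocase of the inner mitochondrial membrane that exchanges ADP for ATP, had 1325 and 1342. *Slc3a2*, the heavy chain that brings several amino acid exchangers to the cell surface, had 1189 and 1137. The order of the first 2 thus differed between the tables, and no replicate spread is at hand to separate them. The mean level of *Slc3a2* was 2.79 times that of the fourth member, *Slc25a4*, a second adenine nucleotide translocase with 419 and 415. *Slc25a3*, the mitochondrial phosphate carrier, had 400 and 418 per kilobase, and *Slc38a2*, a sodium-coupled carrier of neutral amino acids, 386 and 387. *Slc25a17*, a peroxisomal carrier, had 360 and 393, the scaffold gene *Slc9a3r1* 365 and 368, and *Slc25a30*, a mitochondrial carrier, 336 and 348. *Slco3a1*, an organic anion carrier, completed the 10 highest with 332 and 421, and was the one among them with the widest gap between the tables. The 10 together held 34.9% and 35.2% of the summed level. A second length was that of the transcript with the longest coding sequence, in place of all exons. By it 7 of these 10 remained among the 10 highest, and 4 genes rather than 3 stood apart. *Slc25a5* came first with 1759 and 1781 per kilobase of that transcript. *Slc25a3* came second with 1656 and 1732, since the transcript chosen for it has 1341 bases and its annotated exons together 5550. *Slc6a6* (1282 and 1430) and *Slc3a2* (1251 and 1195) followed, ahead of *Slco3a1* with 613 and 777. The place of *Slc25a3* thus depends on the length used.

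*Slc25a4*, on chromosome 8 from 47292151 to 47296638, and *Slc25a5*, on chromosome X from 34335646 to 34338802, have coding sequences of 897 bases each, with 77.6% identical bases in an alignment. The stretch shown, coding bases 28 to 147, was picked as the one of its length with the fewest differences, because the authors kept only reads mapped uniquely, and it is therefore more alike than the sequences as a whole. It has 18 differing bases in 120, given in capitals.
Slc25a4: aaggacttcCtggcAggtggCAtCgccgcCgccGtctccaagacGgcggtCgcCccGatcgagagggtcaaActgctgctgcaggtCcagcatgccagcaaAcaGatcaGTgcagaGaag
Slc25a5: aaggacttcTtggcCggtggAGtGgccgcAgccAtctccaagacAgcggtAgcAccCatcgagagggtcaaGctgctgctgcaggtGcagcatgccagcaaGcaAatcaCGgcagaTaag
The coding sequence of *Slc25a5* has 2 further near-complete matches in mm9 at an identity of at least 95%, the best at 98.1%. Of the 183 members, 5 have such a match over at least 80% of their coding sequence, the others being *Slc35e3*, *Slc35a4*, *Slc39a1* and *Slc5a6*, and 16 have a match of at least 100 bases. Levels of these genes are uncertain to the extent that reads from the shared stretches were dropped. For *Slc6a20a* such stretches cover 48.7% of the coding sequence, for *Slc25a36* 92.3%, for *Slc25a40* 71.0% and for *Slc39a10* 14.0%.

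**Figure D2:**
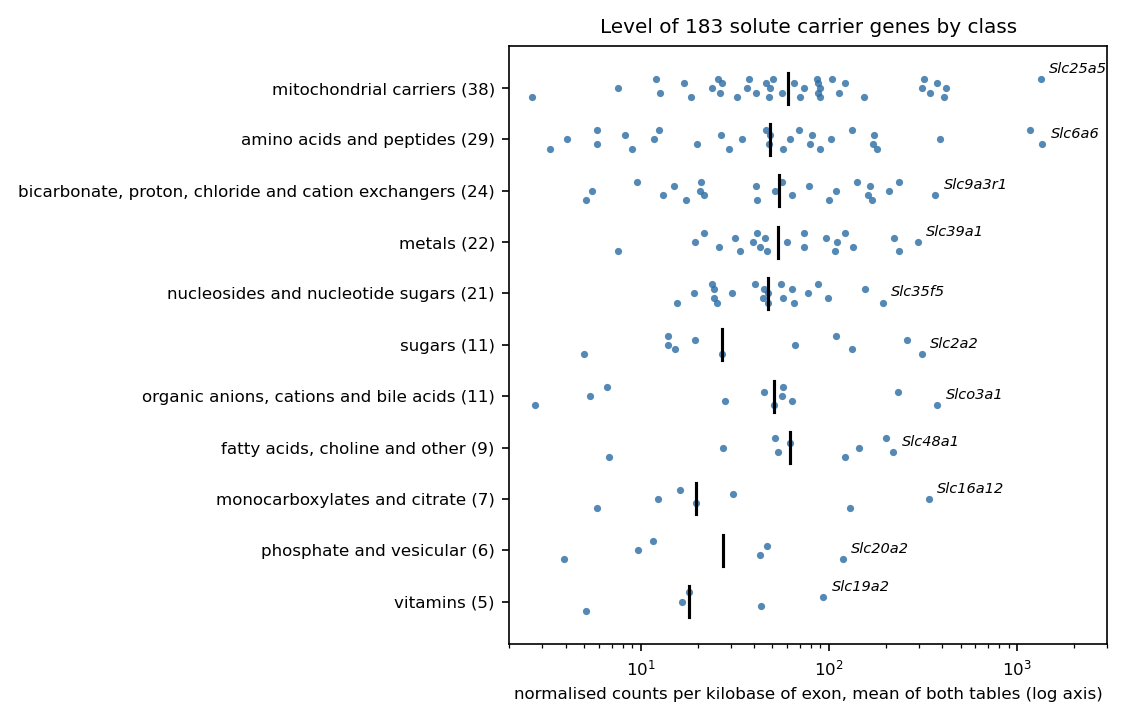
Level of each of the 183 members in normalised counts per kilobase of exon, mean of both tables (x axis, log scale), in 11 substrate classes ordered by summed level, with the number of members in brackets. Each point is 1 gene, jittered in height, the bar is the class median, and the highest member of each class is named. *Slc25a5*, *Slc6a6* and *Slc3a2*, the unlabelled point beside *Slc6a6*, lie apart from all others on this scale.

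The 11 substrate classes, assigned from family numbers and not from the substrate of each member, differed in how many annotated genes reached the minimum. The mitochondrial carrier family, Slc25, did so in 38 of 44 genes (86.4%), metal carriers in 22 of 32 (68.8%), and nucleoside and nucleotide sugar carriers in 21 of 31 (67.7%). Carriers of organic anions, organic cations and bile acids did so in 11 of 49 (22.4%) and sugar carriers in 11 of 34 (32.4%). Amino acid and peptide carriers lay between, with 29 of 69 (42.0%), as did the ion exchangers with 24 of 52 (46.2%). The genes that are no carriers by name are counted here. *Slc9a3r1*, *Slc9a3r2* and *Slc4a1ap* are in the class of ion exchangers. *Slc7a6os* and both entries named *Slc38a9* are in that of amino acid carriers. The class of the Slc25 family, which includes the peroxisomal *Slc25a17*, also held the largest share of the summed level per kilobase, 28.1% and 28.0% in the tables of shRNA 1 and shRNA 2, followed by amino acid carriers with 23.6% and 23.8%. By summed counts without division by length these 2 classes changed places.

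Among the mitochondrial carriers, those outside the 10 highest include *Slc25a24*, a calcium-regulated ATP-magnesium and phosphate carrier, with 319 and 324 per kilobase, and *Slc25a39* with 297 and 327. *Slc25a11*, the oxoglutarate and malate carrier of the malate-aspartate shuttle, had 156 and 151. The citrate carrier *Slc25a1*, which supplies cytosolic acetyl groups for lipid synthesis, had 91.0 and 89.0, and *Slc25a20*, the carnitine and acylcarnitine carrier, 85.9 and 86.5. The aspartate and glutamate carriers of the same shuttle, *Slc25a13* and *Slc25a12*, had 63.5 and 47.2 in the table of shRNA 1 and 67.3 and 50.02 in that of shRNA 2. *Slc25a15*, the ornithine carrier of the urea cycle, had 48.7 and 52.5. The iron carriers *Slc25a37* and *Slc25a28* had 114 and 102 with shRNA 1, and 113 and 107 with shRNA 2. The lowest member of all 183 by the mean of both tables was also mitochondrial, *Slc25a21* with 2.49 and 2.80. Its annotated exons together have 4803 bases and its transcript with the longest coding sequence 918, so this place rests on the length used.

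Among amino acid carriers, levels spanned 3.30 to 1356 in the mean of both tables. Light chains that pair with *Slc3a2* were far lower than it. *Slc7a6* had 172 and 173 per kilobase, *Slc7a5* 46.2 and 49.6, and the cystine and glutamate exchanger *Slc7a11* 7.49 and 8.96. The cationic amino acid carrier *Slc7a1* had 89.98 and 89.5 per kilobase, against 3.28 and 3.31 for *Slc7a2*. *Slc6a8*, the creatine carrier, had 136 and 128, and *Slc38a10* 167 and 191. *Slc38a3*, the glutamine carrier of hepatocytes, had 44.6 and 48.0, and *Slc1a5*, another glutamine carrier, 33.3 and 35.6.

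Metal carriers were led by *Slc39a1*, a zinc importer, with 290 and 304 per kilobase, and *Slc39a4*, another zinc importer, with 239 and 234. *Slc40a1*, ferroportin, the iron exporter, had 220 and 222, and *Slc11a2*, the ferrous iron importer, 69.7 and 78.3. *Slc39a14*, a carrier of zinc, manganese and iron with a known role in liver, had 128 and 116. The copper importer *Slc31a1* had 100.1 and 92.5. *Slc30a1*, the zinc exporter of the plasma membrane, had 41.4 and 41.0.

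In the remaining classes, the highest sugar carrier was *Slc2a2* with 265 and 355 per kilobase, and *Slc2a1*, the carrier of most proliferating cells, had 142 and 123. *Slc37a4*, the glucose 6-phosphate carrier of the endoplasmic reticulum, had 66.3 and 66.0. *Slc16a12* led the monocarboxylate carriers with 330 and 346, ahead of the lactate and pyruvate carrier *Slc16a1* with 127 and 130. Among ion carriers apart from the scaffold genes, the potassium and chloride cotransporter *Slc12a4* had 250 and 221 and the sulfate carrier *Slc26a2* 206 and 210. *Slc35f5* led the family of nucleotide sugar carriers with 193 and 194. *Slc48a1*, a haem carrier, led the mixed class of fatty acid, choline and other carriers with 216 and 223. *Slc20a2*, a sodium and phosphate cotransporter, had 126 and 111, and *Slc19a2*, a thiamine carrier, 95.8 and 90.4.

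Of 29 carriers for which liver is known, 12 were members (41.4%), 4 were listed under the minimum and 13 have no value here (44.8%). Over all 370 annotated genes of the class 49.5% were members and 40.8% have no value here, and the shares of the liver list lie near these. Its 13 genes without a value include the bile acid carrier *Slc10a1*, the organic anion carriers *Slco1a1*, *Slco1a4*, *Slco1b2* and *Slco2b1*, and the fatty acid transport proteins *Slc27a2* and *Slc27a5*. The 12 members were *Slc2a2*, *Slc2a9*, *Slc37a4*, *Slc38a3*, *Slc25a13*, *Slc25a15*, *Slc25a20*, *Slc39a14*, *Slc40a1*, *Slc1a2*, *Slc16a10* and *Slc22a5*. Of these, *Slc2a2* had the highest level per kilobase and *Slc16a10*, a carrier of aromatic amino acids, the lowest with 5.66 and 5.99. *Slc22a5*, the carnitine importer, had 61.9 and 65.5, and *Slc2a9*, a urate carrier, 13.4 and 14.6. In the class of organic anion, cation and bile acid carriers, the ileal bile acid carrier *Slc10a2* was measured, with 53.8 and 59.2 per kilobase.

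The same gene was then compared between the tables. Both comparisons use control libraries, and the ratio of the pooled mean with shRNA 2 to that with shRNA 1 was centred on the median of all 11099 genes, which was 0.07 on the log2 scale. If the 3 control libraries are the same in both tables and a single factor relates their scales, a ratio away from 1 comes from the hairpin libraries and is nearer to 1 than the ratio between the hairpins. This could not be checked from pooled means. The labels name both tables for 1 control library and, for the other 2, the table of shRNA 1 and a table of a further hairpin, and the titles were used. Genes were counted past a centred log2 ratio of 0.32 in either direction, a mean 25% higher in 1 table than in the other, and with no replicate values it is a description of pooled means and not a test.

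Most members had nearly the same pooled mean in both tables. The centred log2 ratio had a median of 0.0043 over the members, with 92 above and 91 below 0, and 121 of 183 members (66.1%) lay within a ratio of 1.1 against 64.4% of all genes. The SD was 0.21 over the members and 0.20 over all genes. Past this bound were 18 members (9.84%), against a background of 8.14% of all genes. Of these, 12 were higher with shRNA 2 (6.56% of members, background 3.78%) and 6 were lower (3.28%, background 4.35%). Of the 18, 11 had a mean under 100 in 1 or both tables, where genes scatter more. Over all genes, ordered by the mean of both tables, the SD was 0.31 for 10 to 30 counts, 0.26 for 30 to 100, 0.17 for 100 to 300 and 0.15 for 300 to 1000. Among the 125 members with at least 100 in both tables, 7 were past the bound (5.60%), against 4.17% of such genes.

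**Figure D3:**
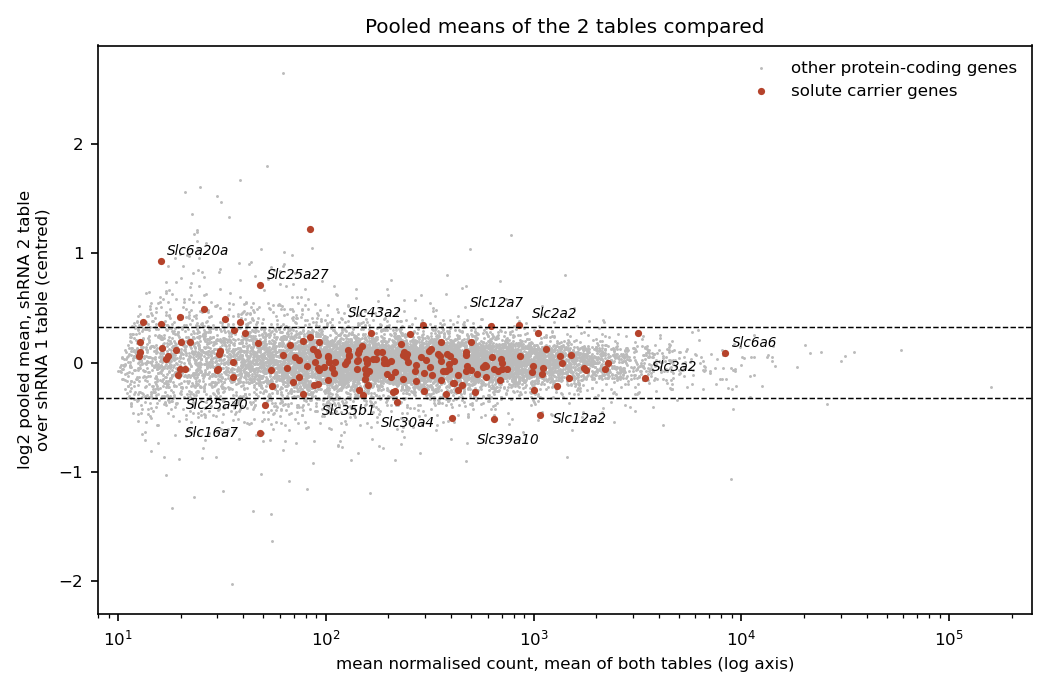
Centred log2 ratio of the pooled mean in the table of shRNA 2 over that of shRNA 1 (y axis) against the mean normalised count of both tables (x axis, log scale), for the 183 solute carrier genes and the other protein-coding genes. Dashed lines mark log2 ratios of 0.32 in either direction, beyond which 18 members lie, and both sets of points spread more widely at low counts.

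Of the 7 members past the bound with at least 100 in both tables, 4 were lower in the table of shRNA 2. *Slc39a10*, a zinc importer of the plasma membrane on chromosome 1 from 46864389 to 46910891, had pooled means of 740 with shRNA 1 and 546 with shRNA 2, a centred log2 ratio of -0.51. *Slc30a4*, which moves zinc into vesicles, on chromosome 2 from 122506969 to 122528399, had 463 and 342, also -0.51. *Slc12a2*, the sodium, potassium and chloride cotransporter on chromosome 18 from 58038332 to 58106475, had 1223 and 922, or -0.48. *Slc35b1*, an ATP carrier of the endoplasmic reticulum, had 243 and 199, or -0.36. Of genes of similar mean count, 99.3% had a smaller absolute ratio than each of the 2 zinc carriers, 99.1% a smaller one than *Slc12a2* and 95.4% a smaller one than *Slc35b1*. The zinc genes do not all share this pattern. *Slc39a1* had a centred log2 ratio of -0.0018 and *Slc30a5*, which carries zinc into the secretory pathway, one of 0.06. Over the 10 members of the Slc39 family the median was -0.05, with 3 above 0, and over the 6 of the Slc30 family it was -0.11, with 2 above 0.

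The 3 higher with shRNA 2 were *Slc2a2*, *Slc43a2* and *Slc12a7*. *Slc2a2*, on chromosome 3 from 28596825 to 28627278, had pooled means of 731 and 977, a centred log2 ratio of 0.35. *Slc43a2*, a carrier of large neutral amino acids, had 252 and 337, or 0.34, and *Slc12a7*, a potassium and chloride cotransporter, 536 and 710, or 0.33. The glucose carriers *Slc2a2* and *Slc2a1* lay on opposite sides, *Slc2a1* having 406 and 351, or -0.28, which is not past the bound. Cation and chloride cotransporters did so too, with *Slc12a2* at -0.48, *Slc12a4* at -0.25, *Slc12a9* at 0.0043 and *Slc12a7* at 0.33. *Slco3a1* had 2814 and 3567, or 0.27, and *Slc37a3*, a relative of the sugar phosphate carriers, 925 and 1172, also 0.27. Further down the list came *Slc1a2*, a glutamate carrier, with 145 and 184, *Slc35c1*, the GDP-fucose carrier of the Golgi, with 225 and 283, and *Slc25a36*, a pyrimidine nucleotide carrier, with 456 and 546. In the other direction *Slc16a6* had 162 and 138, *Slc35b4*, a nucleotide sugar carrier, 559 and 489, and *Slc5a3*, the myo-inositol carrier, 225 and 197.

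**Figure D4:**
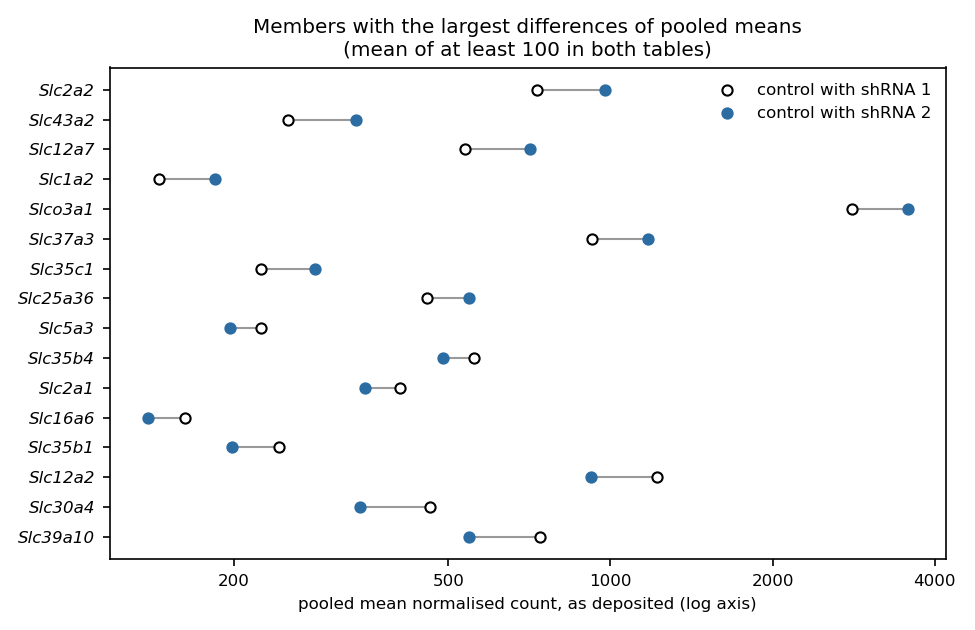
Pooled mean normalised count (x axis, log scale) of the 8 members in each direction with the largest ratios among those with at least 100 in both tables, ordered by ratio. Open circles are the means over control and shRNA 1 libraries and filled circles those over control and shRNA 2 libraries. *Slc39a10*, *Slc30a4* and *Slc12a2* show the widest gaps downward and *Slc2a2* the widest upward.

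Among the 11 members past the bound with under 100 counts in a table, 9 were higher with shRNA 2. By the mean of both tables, 5 of 18 members at 10 to 30 counts and 6 of 37 at 30 to 100 were past it. Over all genes the shares were 22.4% and 13.8% in either direction. Shares by direction are not given at these counts, so nothing is read from the 9. *Slc6a20a*, a proline carrier, had 10.7 and 21.4, or 0.93, and *Slc25a27*, a mitochondrial uncoupling protein relative, 35.6 and 61.3, or 0.71. In the other direction *Slc16a7*, a monocarboxylate carrier with a high affinity for pyruvate, had 57.5 and 38.7, or -0.64, the lowest ratio of all members. *Slc25a40* had 56.8 and 45.5, or -0.39. A further 6 (*Slc5a9*, *Slc26a6*, *Slc46a1*, *Slco4a1*, *Slc29a2* and *Slc7a4*) had ratios from 0.36 to 0.49 at pooled means from 11.1 to 44.3.

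By class, median log2 ratios were near 0, from -0.08 for sugar carriers and -0.08 for metal carriers to 0.08 for vitamin carriers. Of 29 amino acid carriers 3 were past the bound upward and 0 downward, of 22 metal carriers 0 and 2, of 11 sugar carriers 2 and 0, of 24 ion exchangers 2 and 1, and of the 38 genes of the Slc25 family 1 and 1. Over all genes 3.78% were past it upward and 4.35% downward. The amino acid carriers *Slc6a20a* and *Slc7a4* and the sugar carrier family member *Slc5a9* are in these counts with means of 10 to 30 over both tables, where 22.4% of all genes were past the bound in either direction, and nothing particular to a class can be read from so few. The adenine nucleotide translocases *Slc25a5* and *Slc25a4* had centred log2 ratios of -0.05 and -0.09, *Slc3a2* -0.14 and *Slc6a6* 0.09.

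Gene structure was compared with that of all genes at the minimum. Of each gene the transcript with the longest coding sequence was used. These transcripts had a median of 3115 bases over the members (2859 over all such genes). Their coding sequences had one of 1482 (1395) and their number of exons one of 10 (9). The members lay on 20 chromosomes, with 18 on chromosome 11, 16 on chromosome 2, 16 on chromosome 8 and 4 on chromosome 7. As a share of the genes at the minimum this was 2.66% on chromosome X, 2.62% on chromosome 8 and 0.483% on chromosome 7. With no other annotated protein-coding gene starting between them, 4 pairs of members were neighbours. *Slc25a29* and *Slc25a47* lie 15245 bases apart on chromosome 12 and *Slc25a43* and *Slc25a5* 18448 bases apart on chromosome X. *Slc7a6* and *Slc7a6os* lie 1733 bases apart on chromosome 8 on opposite strands. The 2 entries named *Slc38a9* lie 754 bases apart on chromosome 13, on the same strand.

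Promoter windows of the members had a median GC content of 62.3%, against 61.0% over all 11099 genes, and a median ratio of observed to expected CpG of 0.694 against 0.771. The GC box letters GGGCGG were found in 69.4% of the members' windows on either strand (63.9% of all), CCAAT in 38.8% (38.1%) and TATAAA in 6.01% (7.25%). The E-box CACGTG was in 15.8% (10.3%), TGACNNNGC, the core of the antioxidant response element, in 18.6% (14.4%), and TGATGNAA, the letters of the amino acid response element, in 6 of 183 windows, or 3.28% (1.99%). These shares are descriptions, and 1 window may hold several of the motifs, some of which can overlap.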

How the data were processed

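RNA-seq libraries of AML12 cells, 3 in each of 3 groups, were grouped by their titles. Reads had been mapped to mm9 with TopHat2, those mapped uniquely had been counted on GENCODE M1 genes with HTSeq, and the counts had been compared with DESeq2 1.8.2, per the labels and the study's methods. The value used from each of the 2 deposited tables, a signal that is never negative, is a mean of counts divided by size factors. By the titles it is over 6 libraries, which could not be checked. The deposited tables also hold fold changes, standard errors, test statistics and p-values of each hairpin against the control, which were not used. The depth of single libraries is therefore unknown, and no interval, no SD between replicates and no test is given. The SDs printed are over genes. Genes were matched by identifier to GENCODE M1 on NCBIM37, the assembly of mm9. Levels were divided by the union of annotated exons. Log2 ratios were centred on the median over protein-coding genes that reached the minimum of 10 in each table. The arithmetic of the ratio was tested on simulated counts with counting noise alone and the same control libraries in both tables. That test does not show how far the real pooled means scatter. Coding sequences were aligned with Biopython and searched in the genome with BLAST (identity of at least 95%, at least 100 bases).

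The genes named by rule are the 10 highest per kilobase, the highest of each class, the 8 in each direction with the largest ratio at a mean of at least 100, a list of 29 liver carriers, the 3 on each side of the minimum, neighbouring pairs, a member with a pseudogene of its symbol, and *Srrm2*. Others, among them those past the bound with lower means, members with copies and further carriers of each class, were named after their values were seen, as were the promoters and the coding stretch that are printed. The members and lists were chosen with earlier results of these data known. Alternatives were other minimum counts, lengths, ratios, centrings, totals and promoter windows. Values of some single genes are not reported here.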

Additional observations from a re-analysis of the deposited data

How the results depend on the processing

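The number of members was 196 at a minimum of 5, 151 at 50 and 125 at 100. It was 179 without the 4 genes that are no carriers by name, an alternative chosen after the data were seen. Without length correction 6 of the 10 highest members remained. A ratio of 1.1 was passed by 62 members and one of 1.5 by 4, against 18 at the bound used. Restricting the count to members with a mean of at least 100 left 7 (5.60%), against 4.17% of all genes at that mean. Of these 7, 3 were higher and 4 lower with shRNA 2. Without centring, 22 members were past the bound, 18 higher and 4 lower against 12 and 6 with it. The median log2 ratio was then 0.076, against 0.0043. Leaving out the centring raises the log2 ratio of every gene by 0.07, so the move upward is not particular to the members. Shares over all genes are not given for the ratio of 1.5 or without centring. Of the 11 classes, 6 kept their place in the order by summed counts and 3 in the order by median level. In a promoter window from 500 bases before to 100 after the start, members with TATAAA numbered 28 in place of 11, those with TGATGNAA 14 in place of 6 and those with TGACNNNGC 54 in place of 34, and the shares over all genes also grew. The alternatives not listed stayed within 1.5 times the value reported, or for the median log2 ratio within 0.05. No paired analysis was possible because the values are means over libraries, and no replicate could be left out for the same reason.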

Other observations

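*Slc37a2*, a sugar phosphate carrier related to *Slc37a4*, was not among the 183 genes because its pooled mean lay under the minimum in 1 table. It had 26.5 with shRNA 1 and 8.35 with shRNA 2. Its relative *Slc37a1* had 9.29 and 14.1, and *Slc2a6*, a glucose carrier relative, 4.33 and 9.41. These were chosen after their values were seen, at counts at which the tables scatter most.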
